A study of Mus musculus with 2 samples.

Results

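The presynaptic release machinery is described here through 34 genes whose products dock, prime, fuse and tether synaptic vesicles. The genes were taken from a fixed list of families, with no measured value in the choice, and all 34 were among the 19575 genes of the deposited count table. They comprised 8 synaptotagmins, 4 SNARE genes, 3 Munc13 and 3 RIM genes, 2 active-zone scaffolds, 3 synapsins, 2 complexins, 2 ELKS genes, 3 SV2 genes, 2 Rab3 genes, and Stxbp5 and Doc2b. Nuclei came from the dorsal cord at lumbar segments L3 to L5 of adult mice heterozygous for Pdyn-IRES-Cre and for R26-LSL-Sun1.eGFP. In such mice a green fluorescent protein at the nuclear envelope marks a nucleus whose cell, or an ancestor of it, used the prodynorphin gene (Pdyn), so a sorted nucleus need not use that gene in the adult. Both libraries carried these alleles, were sorted on the fluorescence, and pooled 8 mice of either sex. The naive library came from littermates that received isoflurane alone at postnatal day 3, and the injured library from mice with an incision of the left plantar hindpaw at postnatal day 3. There was 1 pooled library per condition, so no difference between conditions has a replicate check, no p-value is given, and every interval covers counting error only.

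Transmitter release runs on a core that neurons share and on parts that come as paralogs. Vesicle VAMP pairs with Snap25 and syntaxin at the membrane to form the fusing SNARE bundle. Munc13 and RIM proteins prime vesicles at the active zone, complexins hold the primed bundle, and synaptotagmins sense the calcium that sets fusion off. Paralogs differ in speed, calcium affinity and the stores they serve, so the mix of paralogs is one of the ways in which synapses of different neurons are known to differ. The question put to the files was which paralogs inhibitory and excitatory neurons of the Pdyn lineage use, and whether that mix differed between the libraries.

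The naive library held 4063 nuclei with a median of 6955 UMIs (unique molecular identifiers, each standing for 1 captured transcript), and the injured library 3547 nuclei with a median of 8464. Only 3 barcode sequences occurred in both. Clusters were built without the 34 genes and named from transmitter markers. Inhibitory-like nuclei, rich in Gad1, Gad2, Slc32a1 and Slc6a5, numbered 2686 in the naive library (66.1%, exact 95% interval 64.6 to 67.6) and 2272 in the injured library (64.1%, 62.4 to 65.6). Excitatory-like nuclei, rich in Slc17a6, numbered 963 (23.7%) and 854 (24.1%). The 4 inhibitory transmitter genes together stood at 492 and 462 CPM (UMIs per 1000000 UMIs of the class) in inhibitory-like nuclei of the naive and injured libraries, against 29.3 and 25.1 CPM in excitatory-like nuclei. Slc17a6 stood at 220.4 and 206 CPM in excitatory-like nuclei and at 4.63 and 4.11 CPM in inhibitory-like nuclei. Lmx1b and Tlx3, transcription factors of excitatory dorsal horn neurons, followed Slc17a6, but Ebf1 and Ebf3 from the same marker list did not. Ebf1 stood at 2876 and 2850 CPM in inhibitory-like and at 934 and 889.6 CPM in excitatory-like nuclei. The excitatory name was set by the ratio of Slc17a6 to the 4 inhibitory transmitter genes, so the transmitter levels above follow from the naming. Of the other listed excitatory markers, only Lmx1b and Tlx3 went with that name. Excitatory-like nuclei were deeper, with medians of 8135 and 9972.5 UMIs against 6725 and 7895.5.

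The release genes took their largest shares in neurons. They made up 1.03% and 1.08% of all UMIs in inhibitory-like nuclei of the naive and injured libraries, 0.771% and 0.816% in excitatory-like nuclei, and 0.0788% and 0.0786% in oligodendrocyte-like nuclei, which should lack them. Astrocyte-like nuclei stood between, at 0.408% and 0.531%, and the 8 and 3 microglia-like nuclei at 0.499% and 0.0777%. Sv2a was an exception, at 173 and 93.8 CPM in 42 and 45 oligodendrocyte-like nuclei against 79.1 and 70.5 CPM in inhibitory-like nuclei. The oligodendrocyte-like values rest on few UMIs, as 3 UMIs amount to 28.8 CPM in naive and 21.6 CPM in injured nuclei of that class. A large part of nuclear RNA is unspliced, so long genes may collect more UMIs where intronic reads are counted. Whether they were counted here is not given, and how UMIs scale with span was not tested. Levels of different genes are compared here per kilobase of genomic span, and the ranks below depend on that choice. Shares within a family are given both by UMIs and per kilobase. Per kilobase Rab3a, which marks synaptic vesicles for docking, ranked first of the 34 in naive inhibitory-like nuclei (10.8 CPM per kb) and in naive excitatory-like nuclei (11.1 CPM per kb). Syt4 (8.86) and Snap25 (8.09 CPM per kb) followed in inhibitory-like nuclei. Sv2b (0.102) and Syt17 (0.0369 CPM per kb) came last. In the injured library Snap25 ranked first in both classes (8.15 and 9.36 CPM per kb), ahead of Rab3a at 7.12 CPM per kb in inhibitory-like and 7.74 CPM per kb in excitatory-like nuclei.

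The largest class differences ran in opposite directions for a Munc13 and an SV2 gene. Because the 2 genes frame the results, the 250 bases before their outermost RefSeq start (build GRCm38.p6) are shown, written in the direction of transcription. Capitals mark E-boxes, CANNTG, a motif that reads the same on both strands, and GC boxes, GGGCGG on either strand. No position belonged to both motifs. The Unc13c sequence lies on the minus strand at chr9:73969038-73969287, and the Sv2b sequence on the minus strand at chr7:75309263-75309512.
Unc13c: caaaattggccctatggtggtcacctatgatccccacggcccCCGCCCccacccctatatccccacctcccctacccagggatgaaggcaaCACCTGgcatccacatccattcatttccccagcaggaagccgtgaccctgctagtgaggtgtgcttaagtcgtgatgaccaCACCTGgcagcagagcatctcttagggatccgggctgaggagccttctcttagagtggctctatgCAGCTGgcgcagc
Sv2b: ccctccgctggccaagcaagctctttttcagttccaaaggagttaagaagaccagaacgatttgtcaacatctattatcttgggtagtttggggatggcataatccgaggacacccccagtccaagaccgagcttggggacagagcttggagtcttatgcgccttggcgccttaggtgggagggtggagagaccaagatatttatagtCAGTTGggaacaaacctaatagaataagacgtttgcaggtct

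The Unc13c window held 3 E-boxes and 1 GC box, and the Sv2b window 1 E-box and no GC box. Both windows were poor in CpG for this gene set, with 6 and 7 CpG dinucleotides against a median of 16 over the 26 release genes found in the promoter table. Over all 27025 genes of that table the median was 6. A GC box stood in 21 of the 26 release gene windows (80.8%) and in 33.0% of all windows. E-boxes stood in 16 of the 26 (61.5%) and in 66.1% of all windows. Another motif searched, TATAAA on either strand, is not marked above. It stood in 1 of the 26 (3.85%), the Sv2b window, and in 13.0% of all windows. A match of letters is a description of the window and not a binding site.

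Between the classes, 8 of the 34 genes were at least 1.5 times as high in inhibitory-like as in excitatory-like nuclei of the naive library (23.5%; over all 13876 genes with enough UMIs, 8.36%), and 4 were as much lower (11.8%; over all genes 10.5%). In the injured library 9 genes were higher (26.5%; over all genes 8.58%) and 5 lower (14.7%; over all genes 10.5%). The 8 higher genes of the naive library, Syt1, Syt7, Syt10, Stx1a, Unc13b, Unc13c, Sv2c and Doc2b, were also past that fold in the injured library, where Syt9 joined them. The 4 lower genes, Syt6, Vamp1, Cplx2 and Sv2b, were again lower. Syt17 was the other lower gene there, on 51 and 37 UMIs with an interval that included 1, and its naive ratio went the other way. The other 20 genes lay within 1.5-fold in both libraries. The 34 genes had median log2 ratios of -0.02 (naive) and -0.05 (injured), beside -0.02 and -0.03 for all genes. The median gene thus lay near that of all genes, with genes past the fold on both sides. The summed UMIs of the 34 nevertheless took the larger share in the inhibitory class given above, in which abundant genes such as Syt1 and Unc13c weigh most.

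**Figure D1:**
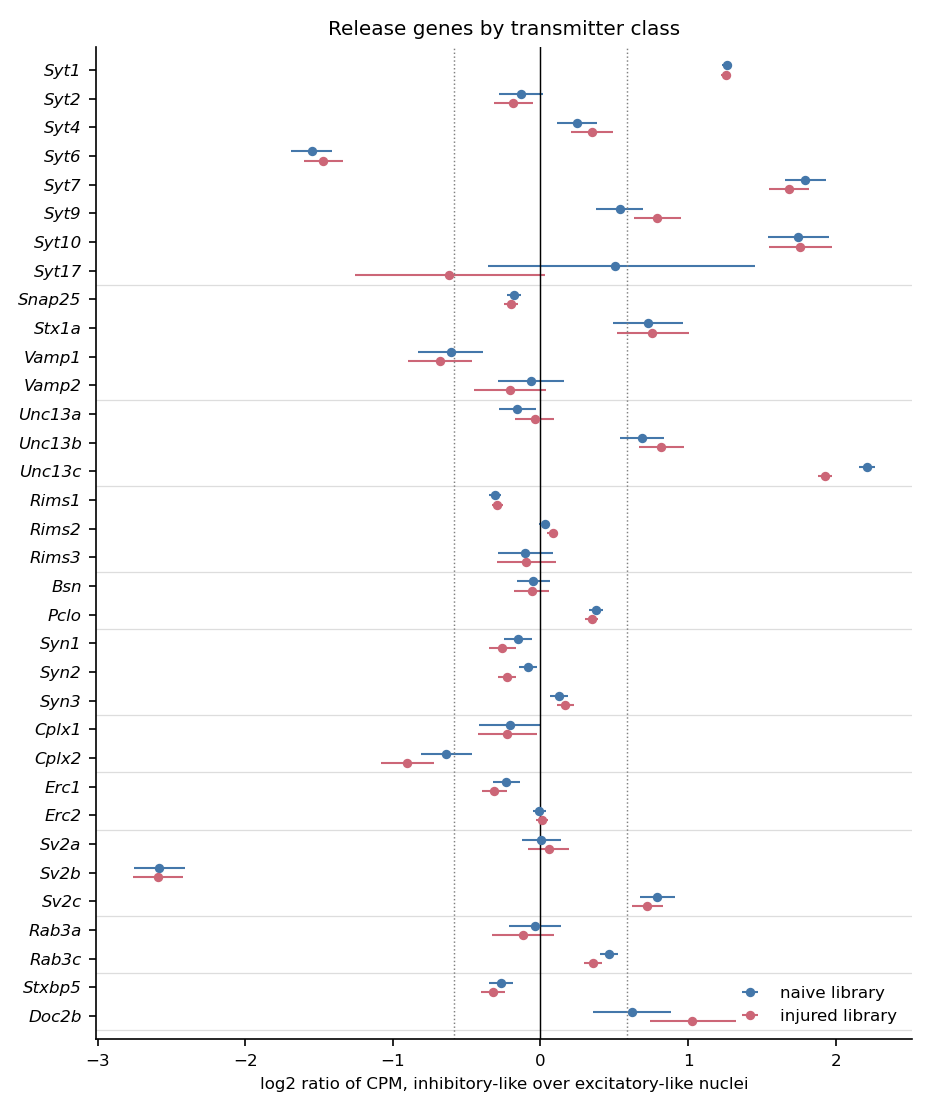
Log2 ratio of CPM in inhibitory-like over excitatory-like nuclei for each of the 34 genes, grouped by family, in the naive (blue) and injured (red) libraries; bars are exact 95% counting intervals and dotted lines mark 1.5-fold. Unc13c, Syt7, Syt10 and Syt1 lie farthest right and Sv2b and Syt6 farthest left, in both libraries.

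Among the calcium sensors, Syt1, the fast sensor of most forebrain synapses, stood at 2071 CPM in inhibitory-like and 862 CPM in excitatory-like nuclei of the naive library, and at 2341 and 981 CPM in the injured library. The inhibitory to excitatory ratio was 2.40 (2.34 to 2.46) and 2.39 (2.33 to 2.44). Syt7, a slow high-affinity sensor of asynchronous release and vesicle replenishment, stood at 198 against 57.1 CPM and at 183 against 57.0 CPM, a ratio of 3.47 (3.16 to 3.82) and 3.21 (2.92 to 3.52). The 2 genes were thus higher together in the inhibitory class of both libraries. Syt10, known for the release of growth factor vesicles in olfactory bulb neurons, stood at 86.0 against 25.6 CPM and at 77.6 against 22.9 CPM, a ratio of 3.36 and 3.38. Syt9, another fast sensor, stood at 70.9 against 48.9 CPM in the naive and at 76.6 against 44.3 CPM in the injured library; only the second pair was past 1.5-fold (1.73, 1.55 to 1.93).

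Among the 8 synaptotagmins, Syt6 was the one past 1.5-fold higher in the excitatory class of both libraries. It stood at 39.5 CPM in inhibitory-like and 116 CPM in excitatory-like nuclei of the naive library, and at 41.6 and 115 CPM in the injured library, 2.93 and 2.77 times as high in the excitatory class. The classes overlapped by cluster: inhibitory-like cluster 11 held 132 and 149.9 CPM of Syt6, above the medians of 105 and 93.1 CPM over the excitatory-like clusters. Syt2, the fast sensor of hindbrain and spinal synapses and a paralog of Syt1, was near equal in the classes, at 59.3 against 65.0 CPM and at 70.3 against 79.9 CPM. Syt4, which does not bind calcium with its first calcium-binding domain, stood at 85.0 against 71.7 CPM and at 75.7 against 59.4 CPM, within 1.5-fold in both libraries. Syt17 was barely detected, at 2.49 against 1.75 CPM (48 and 15 UMIs) and at 2.62 against 4.02 CPM (51 and 37 UMIs), and both of its ratios had intervals that included 1.

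Of the genes higher in the inhibitory class, a priming factor had the widest gap. Unc13c, the Munc13 known for its cerebellar expression, stood at 1601 CPM in inhibitory-like and 346 CPM in excitatory-like nuclei of the naive library, a ratio of 4.63 (4.46 to 4.81). In the injured library it stood at 1622 and 426 CPM, a ratio of 3.80 (3.68 to 3.93). After thinning every nucleus to 3000 UMIs, 90.1% of naive and 89.2% of injured inhibitory-like nuclei held an Unc13c UMI, against 41.6% and 46.8% of excitatory-like nuclei; before thinning the shares were 94.9%, 95.03%, 56.3% and 64.1%. Oligodendrocyte-like nuclei, at medians of 2146.5 and 2593 UMIs, held 1 Unc13c UMI in the naive and none in the injured library, which allows up to 21.6 CPM there. Unc13b stood at 87.2 against 54.1 CPM and at 83.8 against 47.5 CPM, a ratio of 1.61 and 1.77. Unc13a, the Munc13 required at most excitatory synapses, stood at 79.4 against 88.5 CPM and at 73.5 against 75.5 CPM and so differed little between the classes.

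The RIM genes, which link Rab3 to Munc13 and calcium channels, stayed within 1.5-fold. Rims1 stood at 701 against 868 CPM in the naive and at 784 against 961 CPM in the injured library, 1.24 and 1.23 times as high in the excitatory class. Rims2 stood at 972 against 953 and at 1024 against 967 CPM, and Rims3 at 37.7 against 40.5 and at 31.6 against 33.8 CPM. The scaffolds split: Pclo was 1.30 and 1.27 times as high in the inhibitory class, at 745 against 575 and at 757 against 595 CPM, while Bsn was level, at 104 against 108 and at 92.6 against 96.6 CPM. Of the ELKS scaffolds, Erc2 had class ratios of 0.994 and 1.01, and Erc1 was 1.17 and 1.24 times as high in the excitatory class. These RIM, scaffold and ELKS genes thus differed less between the classes than Unc13c and Unc13b. Against Unc13a, with log2 ratios of -0.16 and -0.04, the order varied. Erc2 differed less than Unc13a in both libraries, while Rims1, Pclo and Erc1 differed more in both.

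In the fusion machine itself, Snap25, the membrane SNARE, stood at 558 against 630.1 CPM and at 562 against 645 CPM, 1.13 and 1.15 times as high in the excitatory class. Its syntaxin partner Stx1a went the other way, at 36.2 against 21.9 and at 32.5 against 19.2 CPM, a ratio of 1.65 (1.41 to 1.96) and 1.69 (1.43 to 2.01). Vamp1, a vesicle SNARE abundant in spinal cord and brainstem, stood at 21.6 against 33.0 and at 20.5 against 32.9 CPM, 1.53 and 1.60 times as high in the excitatory class. Vamp2, the vesicle SNARE of most forebrain synapses, had ratios of 0.957 and 0.865, and the intervals of both included 1. The fusion clamp Cplx2 was 1.56 and 1.87 times as high in the excitatory class, at 35.2 against 54.7 and at 28.0 against 52.4 CPM. Cplx1 stood at 29.7 against 34.3 and at 30.6 against 35.7 CPM. Stxbp5 (tomosyn), which competes for syntaxin and inhibits priming, was 1.20 and 1.248 times as high in the excitatory class.

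The SV2 vesicle glycoproteins, which also serve as entry receptors of botulinum toxin A, were the sharpest case of paralog choice. Sv2b stood at 19.8 CPM in inhibitory-like and 118 CPM in excitatory-like nuclei of the naive library, and at 20.4 and 123 CPM in the injured library. It was 5.98 and 6.01 times as high in the excitatory class. Only 0.901% to 1.01% of all genes had a lower inhibitory to excitatory ratio. Sv2c stood at 150 against 86.5 CPM and at 171 against 104 CPM, a ratio of 1.73 (1.60 to 1.88) and 1.65 (1.54 to 1.78). Sv2a, the most widely used of the 3, had log2 ratios of 0.01 and 0.06. Among the vesicle-bound proteins, Rab3c was 1.38 and 1.28 times as high in the inhibitory class and Rab3a was level (0.974 and 0.920). The synapsins, which cluster vesicles in the reserve pool, lay between 0.837 and 1.12. Doc2b, a high-affinity calcium-binding protein linked to spontaneous release, stood at 27.4 against 17.9 CPM and at 26.8 against 13.1 CPM, a ratio of 1.53 (1.28 to 1.85) and 2.04 (1.67 to 2.51).

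Shares within a family show the mix directly. Of the SV2 UMIs, Sv2b made up 7.96% (7.21 to 8.77) in naive and 7.77% in injured inhibitory-like nuclei, against 41.7% (39.8 to 43.7) and 41.7% in excitatory-like nuclei. Sv2c took 60.2% and 65.3% in the inhibitory and 30.5% and 35.3% in the excitatory class. Per kilobase of gene, the short Sv2a led in every group with 79.5% to 85.4%, and the contrast in Sv2b remained at 1.58% and 1.76% against 9.26% and 10.6%. Of the Munc13 UMIs, Unc13c made up 90.6% and 91.2% in the inhibitory class against 70.8% and 77.6% in the excitatory class. Scaling per kilobase changed the leading Munc13 of the excitatory class: Unc13a then took 65.9% and 59.1% there, against 31.2% and 29.5% in the inhibitory class, where Unc13c kept 60.9% and 62.8%.

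Of the UMIs of the 8 listed synaptotagmins, Syt1 made up 79.3% and 81.6% in the inhibitory and 69.1% and 71.9% in the excitatory class. Syt6 made up 1.51% and 1.45% against 9.27% and 8.46%, and Syt2 2.27% and 2.45% against 5.21% and 5.85%. Syt2 thus had a larger share in the excitatory class, where Syt1 was lower, although its own level was near equal. Per kilobase Syt4 led the 8, with 46.8% and 43.2% in the inhibitory and 57.5% and 51.5% in the excitatory class. Syt1 then took 21.3% and 24.96% against 12.9% and 15.9%. Syt6 took 2.97% and 3.24% against 12.7% and 13.7% on that scale. Vamp1 made up 44.3% and 49.8% of the VAMP pair in the inhibitory and 53.7% and 57.9% in the excitatory class, and per kilobase 9.24% and 11.3% against 12.9% and 14.99%. Cplx1 made up 45.8% and 52.2% of the complexin pair in the inhibitory and 38.5% and 40.6% in the excitatory class, and per kilobase 25.2% and 30.4% against 20.003% and 21.4%. For each of these shares the order of the classes was the same in both libraries and on both scales. Within the VAMP and complexin pairs the scale cannot change that order, so the match of scales there carries no information.

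**Figure D2:**
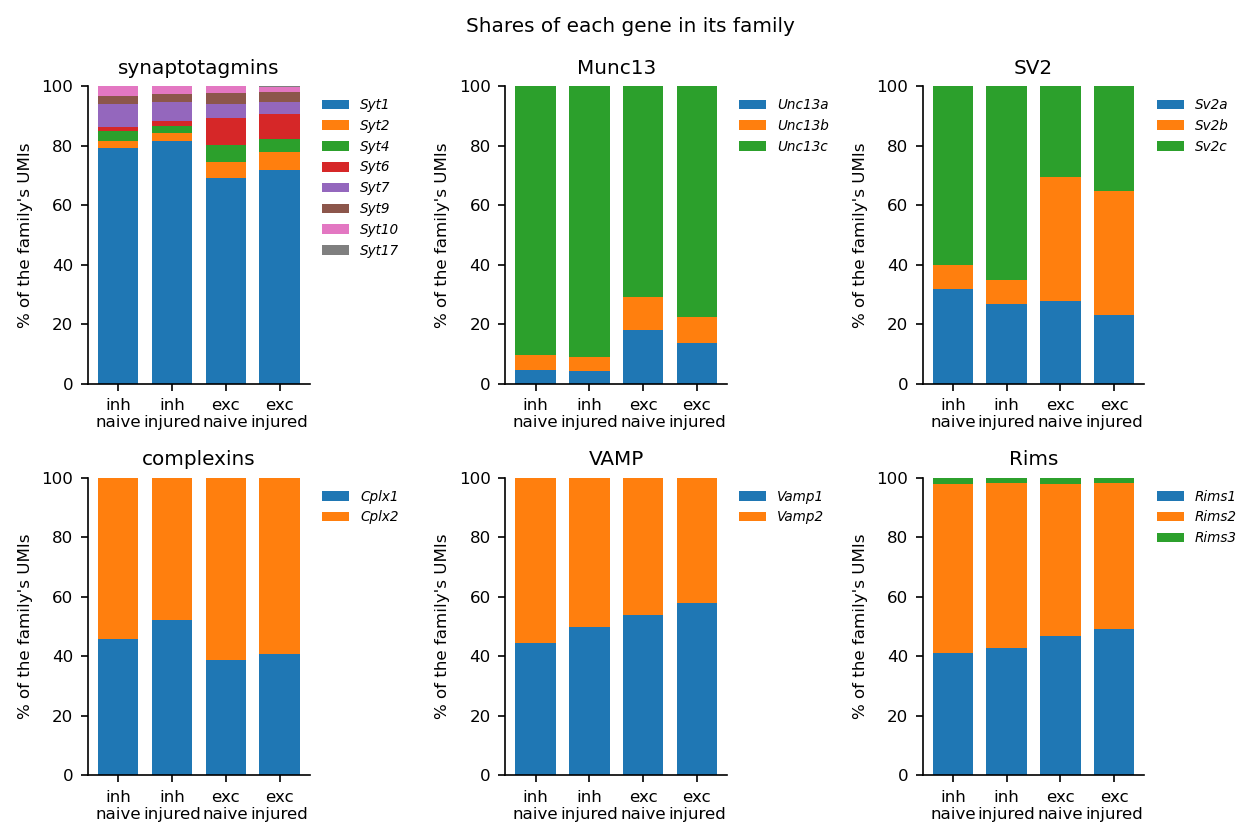
Stacked shares (% of the UMIs of the listed genes of a family) of each listed paralog in 6 families for inhibitory-like (inh) and excitatory-like (exc) nuclei of the naive and injured libraries. Sv2b fills 41.7% of the SV2 bar in excitatory-like nuclei of both libraries against 7.96% and 7.77% in inhibitory-like nuclei, and Unc13c fills most of each Munc13 bar.

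Outside these classes, cerebrospinal-fluid-contacting-neuron-like nuclei, marked by Pkd2l1 and Pkd1l2 and found in 106 naive and 48 injured nuclei, had a mix of their own. They carried inhibitory transmitter genes at 467 and 559 CPM. Syt10 stood there at 426 CPM (374 to 483) in naive and 364 CPM (301 to 437) in injured nuclei, far above the 86.0 and 77.6 CPM of inhibitory-like nuclei. Unc13c, in contrast, stood at 296 and 412 CPM, near the level of the excitatory class. Syt1 stood at 1892 and 2098 CPM and Syt7 at 42.6 and 40.8 CPM, so the joint high level of Syt1 and Syt7 in inhibitory-like nuclei did not extend to these cells. Doc2b had 2 UMIs in naive and 0 in injured nuclei, the latter allowing up to 9.42 CPM. Astrocyte-like nuclei (54 and 47) held Unc13c at 550.3 and 789 CPM beside inhibitory transmitter genes at 175 and 128 CPM; how far neuronal RNA contributed there was not tested.

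Within the classes, 17 clusters had at least 50 nuclei in each library, 10 inhibitory-like and 7 excitatory-like. Across them the members ranged from nearly uniform to nearly on or off. Bsn varied 1.47-fold in the naive and 1.46-fold in the injured library between cluster 1 and cluster 16, and Rims2 by 1.67-fold and 1.75-fold between cluster 11 and cluster 1. At the other end, Sv2b stood at 436 and 418 CPM in excitatory-like cluster 17 (leading genes Skor2 and C1ql1) and at 2.1 and 3.5 CPM in inhibitory-like cluster 3 (Foxo1 and Prok2). Levels in the 17 clusters were correlated between the libraries at Pearson r over 0.9 for 25 of the 34 genes, a description over points that share a library, and 21 genes had their highest level in the same cluster of both.

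**Figure D3:**
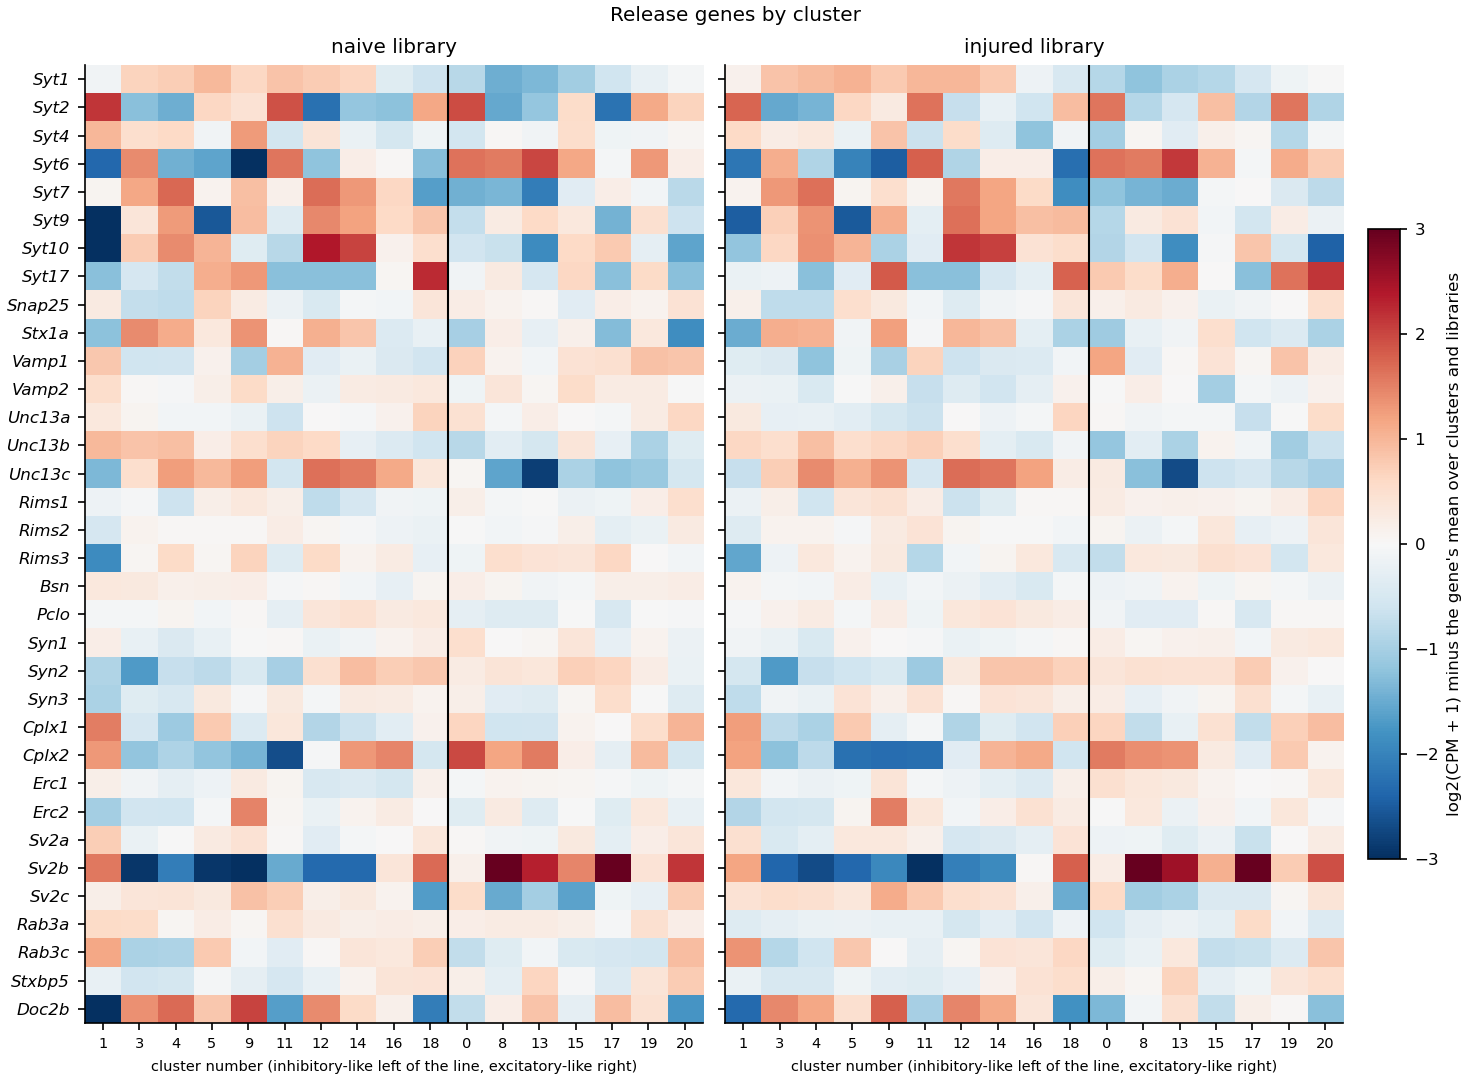
Log2(CPM + 1) of each release gene minus its mean over the 17 clusters and both libraries, with the naive library at left and the injured library at right; columns are clusters, inhibitory-like left of the black line, and colours saturate at differences of 3. The 2 panels are alike for most genes, and Syt2, Syt6, Syt9, Syt10, Unc13c, Cplx2, Sv2b and Doc2b vary most among clusters.

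The class difference of Unc13c was not shared by every inhibitory-like cluster. Its level was highest in cluster 12 (leading genes Cartpt and Alk) at 2396 and 2439 CPM and lowest in excitatory-like cluster 13 (Aldh1a2 and Ttn) at 107 and 118 CPM. In the naive library 8 of the 10 inhibitory-like clusters lay above every excitatory-like cluster, and in the injured library 7. Cluster 1 (Atp10a and Rasgrp4) was the lowest inhibitory-like cluster for Unc13c, at 299.6 and 469 CPM, below the 789 and 924 CPM of excitatory-like cluster 0 (Drd1). For Syt1, 7 and 8 of the 10 inhibitory-like clusters lay above every excitatory-like cluster, and the extremes were cluster 5 (Nxph2 and Fbxl7) at 2945 and 3096 CPM and cluster 8 (Myo5b and Th) at 548 and 654 CPM. Syt7 was highest in cluster 4 (Mlxipl and Tgfb1), at 321 and 306 CPM. It stood at 22.0 and 33.7 CPM in cluster 13, the lowest cluster of the naive library, while inhibitory-like cluster 18 was the lowest of the injured one at 25.8 CPM.

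Sv2b overlapped between the classes in its low range. Below every excitatory-like cluster lay 7 of the 10 inhibitory-like clusters in the naive library and 8 in the injured library. The exceptions were cluster 18 (Pax5 and Rxfp2) at 75.05 and 79.3 CPM and cluster 1 at 68.4 and 52.0 CPM in both libraries, and cluster 16 (Col12a1 and Nos1) at 28.9 CPM in the naive library. Among the excitatory-like clusters the lowest levels were 24.7 and 26.2 CPM, and the median levels 103 and 88.0 CPM.

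Cluster 1 stood apart for several vesicle genes. It had the highest Cplx1 (85.2 and 70.4 CPM against 13.1 and 14.4 CPM in cluster 4), Syt2 (198 and 149 CPM against 15.3 and 16.2 CPM in cluster 4) and Rab3c (913 and 1036 CPM against 209 and 226 CPM in cluster 3). It also had the lowest Erc2, at 319 and 354 CPM. Syt9 stood at 0.936 and 6.49 CPM there, against 112 and 132 CPM in cluster 12. Doc2b had no UMI in its 122 naive nuclei, which allows up to 2.81 CPM, and stood at 2.16 CPM in its 89 injured nuclei, and the gene was highest in cluster 9 at 64.4 and 54.4 CPM. Stx1a stood at 9.36 and 7.58 CPM in cluster 1 and at 60.5 and 55.3 CPM in cluster 9. In both libraries, then, cluster 1 was high in Cplx1, Syt2 and Rab3c and low in Doc2b, Syt9 and Stx1a.

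Cluster 9 (leading genes Tac2 and Bcam) had the highest Erc2, the brain-specific ELKS scaffold. Erc2 reached 1837 CPM (naive) and 1896 CPM (injured), while in the other inhibitory-like and in the excitatory-like clusters it lay at or below 890.2 CPM. The same cluster had the lowest Syt6 (1.95 and 6.80 CPM, against 174 and 189 CPM in excitatory-like cluster 13) and the highest Sv2c (225 and 266 CPM) and Syt4 (179.6 and 133 CPM). Syt10 was highest in cluster 12, at 191 and 159.8 CPM. For Syt10, 4 of the 10 inhibitory-like clusters lay above every excitatory-like cluster in each library. Inhibitory-like cluster 1 held 1.87 and 15.2 CPM of it. Cplx2 was highest in excitatory-like cluster 0, at 100.2 and 74.5 CPM, and stood at 3.09 and 4.36 CPM in inhibitory-like cluster 11 (Mgmt and Id2), the lowest cluster of the naive library, while cluster 9 was the lowest of the injured one at 4.25 CPM. Syn2 stood at 583 and 545 CPM in cluster 14 (Col24a1 and Gxylt2), the highest cluster of the naive library, next to 546 CPM in cluster 16 of the injured one, and was lowest in cluster 3, at 93.6 and 93.1 CPM.

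Over the 528 pairs that 33 of the genes form, no pair had r above 0.8 across the 17 clusters in both libraries, and 13 pairs had r below -0.6 in both. The closest pair was Syt1 and Syt7 (0.79 naive, 0.78 injured), and the most opposed was Syt1 and Sv2b (-0.85 and -0.87). Syt2 and Cplx1 varied together across clusters (0.80 and 0.74), as did Unc13c and Pclo (0.75 and 0.77). Cplx1 and Doc2b were opposed (-0.76 and -0.75). These values are on log2(CPM + 1), and the clusters share libraries and differ in depth, so they describe the clusters and are not tests.

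Between the libraries the release genes differed little. In inhibitory-like nuclei none of the 33 genes with at least 100 UMIs was 25% higher in the injured library (over all 12894 genes, 2.09%), and 3 were at least 20% lower, the same fold downward: Rab3a, Vamp2 and Cplx2 (9.09%; over all genes 12.3%). In excitatory-like nuclei none of 33 was higher (over all 11253 genes, 1.88%) and 2 were lower: Rab3a and Doc2b (6.06%; over all genes 13.4%). The counts were therefore below or near the share among all genes. The median log2 ratio of the members was -0.00 and 0.01 in the 2 classes, beside -0.08 and -0.08 for all genes.

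Rab3a had the largest difference that both classes shared. Inhibitory-like nuclei held 43.0 CPM of it when naive and 28.5 CPM when injured, and excitatory-like nuclei 44.2 and 31.0 CPM, 1.51 (1.36 to 1.69) and 1.43 (1.22 to 1.67) times as high in the naive library. Its level was higher in the injured library in 1 of the 17 clusters, excitatory-like cluster 17. Vamp2 stood at 27.2 and 20.7 CPM in inhibitory-like nuclei, 1.31 times as high in the naive library, and at 28.4 and 23.9 CPM in excitatory-like nuclei. Cplx2 stood at 35.2 and 28.0 CPM in inhibitory-like nuclei, and at 54.7 and 52.4 CPM in excitatory-like nuclei. Doc2b stood at 17.9 and 13.1 CPM in excitatory-like nuclei, 1.36 times as high in the naive library, and at 27.4 and 26.8 CPM in inhibitory-like nuclei. No gene was past the fold in both classes besides Rab3a.

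These library ratios followed the genomic span of the genes. Over all genes the median log2 ratio, injured over naive, was -0.22 in the shortest and 0.04 in the longest of 5 length groups of equal size, in both classes. The release genes are mostly long, with 17 of 33 in the longest group in inhibitory-like nuclei and 16 of 33 in excitatory-like nuclei. Of the 11 release genes spanning up to 50 kb, 10 were lower in the injured library in each class (median -0.17 and -0.23), whereas 9 of the 10 genes over 200 kb were higher (median 0.10 and 0.12). Rab3a (3.999 kb) and Vamp2 (3.90 kb) are the shortest of the 34. Span, RNA quality and the condition cannot be told apart with 1 library each. Less the median of its length group, the log2 ratio of Rab3a was -0.37 in inhibitory-like and -0.30 in excitatory-like nuclei; the former stayed past a 20% decrease.

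**Figure D4:**
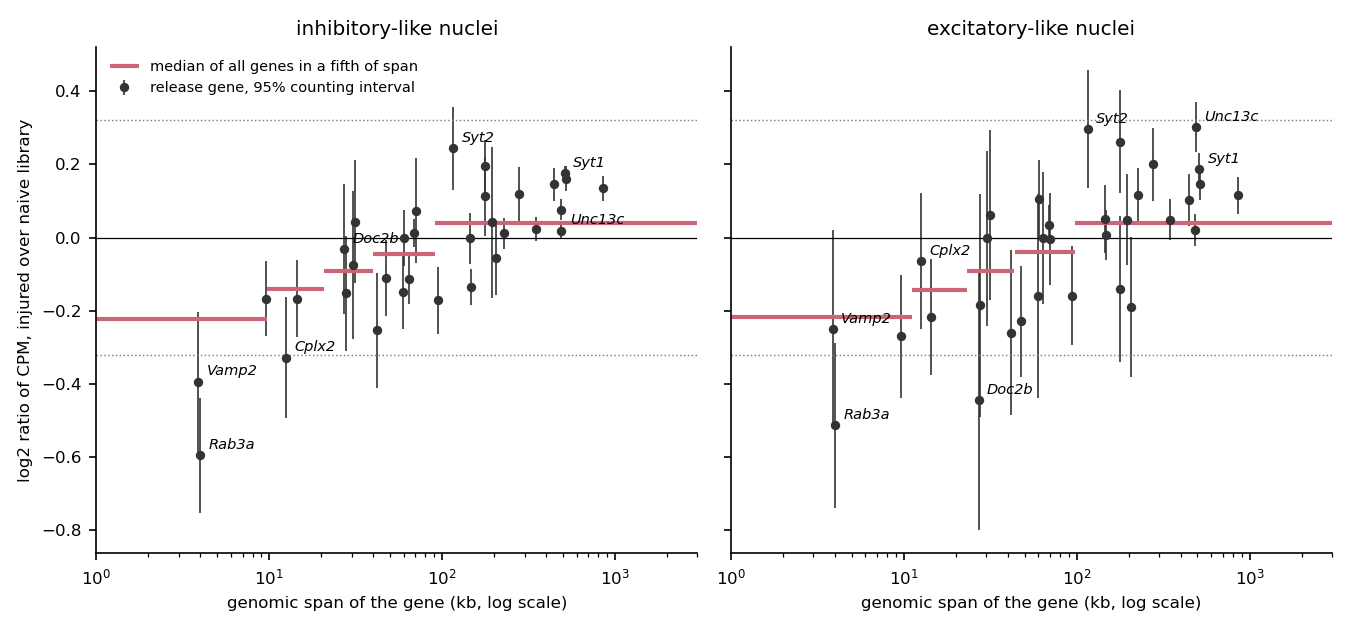
Log2 ratio of CPM, injured over naive library, of the 33 release genes with at least 100 UMIs against genomic span (kb, log scale), in inhibitory-like (left) and excitatory-like (right) nuclei; vertical bars are exact 95% counting intervals, red lines the medians of all genes in each of 5 groups of span, and dotted lines a level 25% higher or 20% lower. Of the genes up to 50 kb, 10 of 11 lie below 0 and of those over 200 kb 9 of 10 above it, and Rab3a lies below the red median of its length group in both panels.

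The differences upward were small. Syt2 was 1.18 times as high in the injured library in inhibitory-like nuclei (59.3 and 70.3 CPM) and 1.23 times in excitatory-like nuclei (65.0 and 79.9 CPM). By cluster it was higher in 9 of the 17, 4 of 10 inhibitory-like and 5 of 7 excitatory-like. Where Syt2 was highest in each class it was lower in the injured library: 198 and 149 CPM in inhibitory-like cluster 1, 174 and 136 CPM in excitatory-like cluster 0. Sv2c was 1.14 and 1.20 times as high in the injured library in inhibitory-like and excitatory-like nuclei, and Syt1 1.13 and 1.14 times. Syt1, Rims1 and Erc1 were higher in 16 of the 17 clusters, and Erc2 in all 17. Unc13c differed between the classes in its library ratio: 1.01 (0.997 to 1.03) in inhibitory-like nuclei and 1.23 (1.18 to 1.29) in excitatory-like nuclei. The difference between these ratios was not tested. By cluster, Unc13c was higher in the injured library in 9 of 10 inhibitory-like and in 6 of 7 excitatory-like clusters. In the excitatory class Unc13c made up 70.8% of Munc13 UMIs in naive and 77.6% in injured nuclei; Unc13a and Unc13b were lower in the injured library there (log2 ratios of -0.23 and -0.19). In the inhibitory class the shares were 90.6% and 91.2%. Other families differed between the libraries too. Rab3a made up 8.62% and 5.83% of Rab3 UMIs in the inhibitory and 11.8% and 7.94% in the excitatory class. In the inhibitory class Sv2c made up 60.2% (58.8 to 61.6) and 65.3% (64.0 to 66.7) of SV2 UMIs, Cplx1 45.8% (43.0 to 48.6) and 52.2% (49.2 to 55.1) of complexin UMIs, and Syn2 41.3% (40.6 to 42.1) and 37.3% (36.6 to 38.1) of synapsin UMIs. The intervals of Vamp1, at 44.3% (41.1 to 47.5) and 49.8% (46.3 to 53.3) of VAMP UMIs, overlapped. In each of these families a gene with a larger share in the injured library spanned more than one with a smaller share. The spans were 490 kb for Unc13c against 47.3 kb for Unc13a, and 227 kb for Rab3c against 3.999 kb for Rab3a. Sv2c (178 kb) likewise exceeded Sv2a (14.4 kb), Cplx1 (31.5 kb) Cplx2 (12.6 kb), and Syn3 (444 kb) Syn2 (147 kb). Span did not order every gene of these families. In the inhibitory class Sv2b (194 kb), which spans more than Sv2c, made up 7.96% and 7.77% of SV2 UMIs. Syn1 (60.5 kb), which spans less than Syn2, made up 15.9% and 15.8% of synapsin UMIs there. The shifts in share cannot be told apart from the span pattern above.

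Other genes of the release pathway were read from a second list of 66, of which 62 were in the table and 58 had enough UMIs. In the naive library 4 were past 1.5-fold higher (6.90%; over all genes 8.36%) and 5 lower (8.62%; over all genes 10.5%) in the inhibitory class. In the injured library 3 were higher (5.17%; over all genes 8.58%) and 6 lower (10.3%; over all genes 10.5%). No share was thus above that of all genes. The highest ratios were those of Cadps2, a factor of dense-core vesicle priming (303 against 51.7 CPM and 308 against 62.0 CPM), of the Rab3 effector Rph3a (239 against 125 and 238 against 125 CPM) and of Syt14 (158 against 90.7 and 160 against 104 CPM). The lowest were those of Syt13 (11.5 against 91.1 and 9.75 against 71.8 CPM), of the vesicle protein Synpr (59.0 against 305 and 62.4 against 267 CPM) and of the scaffold Lin7a (88.5 against 289 and 90.6 against 292 CPM). Excitatory-like nuclei thus had Sv2b, Syt6, Syt13, Synpr and Lin7a at higher levels, and inhibitory-like nuclei Unc13c, Cadps2, Syt7, Syt10 and Syt1.

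Between the libraries, 1 of 57 other release genes was past 25% higher (1.75%; over all genes 2.09%) and 6 past 20% lower (10.5%; over all genes 12.3%) in inhibitory-like nuclei. In excitatory-like nuclei the counts were 1 (1.75%; over all genes 1.88%) and 5 (8.77%; over all genes 13.4%), so no share was above that of all genes. Rab27b, a Rab of secretory vesicles, was the higher gene in both, at 99.7 and 129 CPM in naive and injured inhibitory-like nuclei and at 111 and 141 CPM in excitatory-like nuclei. Apba1 (147 and 161 CPM) and Ppfia2 (1102 and 1187 CPM) came next in inhibitory-like nuclei, both less than 25% higher. The lowest ratios there were those of Tprgl (15.2 and 7.75 CPM), Lin7b (18.1 and 12.5 CPM) and Doc2a (8.63 and 6.36 CPM).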

How the data were processed

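Nuclei were profiled with droplet 3' v3 chemistry, and each listed count is of UMIs. Per the submitters' processing notes, Cell Ranger 3.0.2 and Seurat were used with genome build mm10; which annotation served, and whether intronic reads counted, is not given in the sources used here. Raw counts were deposited, and the authors also deposited normalized values on a natural log scale, which equal ln(1 + 10000 x count / total) within 6e-15; the raw counts served all values and the log values one alternative.

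All nuclei entered 1 joint clustering with scanpy 1.11.5 (2000 variable genes, 30 components, 15 neighbours, Leiden resolution 1.0), with 200 genes kept out, among them all 34 members. The inhibitory and excitatory classes needed an inhibitory to excitatory ratio of transmitter CPM of at least 10, or an inverse ratio of at least 4. They also needed 3 of their markers above 0 CPM. Other classes needed a marker score of 1.5 and 3 markers above their level over all nuclei. A cluster stayed unnamed where another class had more markers among its leading genes, which had to be present in 15% of nuclei. Glia clusters with a neuron's level of transmitter genes also stayed unnamed. These thresholds were set after the data were seen, and rebuilt classes may differ from those of the study. Unnamed clusters held 204 naive and 278 injured nuclei. Doublets were not removed: Scrublet called 2.61% of naive but 0.197% of injured nuclei, where it did not work, and 4.73% and 5.72% of nuclei held both Xist and Y-linked UMIs.

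UMIs were summed by class and library. Intervals are exact at 95% (Poisson for CPM, conditional binomial for ratios, Clopper-Pearson for shares). A fold was read only for genes with at least 100 UMIs (for classes, summed over both classes and both libraries), at 1.5 between classes and, between libraries, at 25% higher or 20% lower; a count of 0 allows up to 3 counts. The ratio code was tested on simulated data. For thinning, 128 naive and 76 injured nuclei below 3000 UMIs were left out. Gene spans came from GENCODE M21 (96.0% of genes matched) and promoters from RefSeq. Alternatives included edgeR 4.0.16 TMM factors. The members, lists and named genes (of the other pathway genes, the 3 highest and 3 lowest ratios; of clusters, the highest and lowest for a gene) were chosen with earlier results of these data known.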

Additional observations from a re-analysis of the deposited data

How the results depend on the processing

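No alternative turned the direction of a gene past the fold. In the comparison of classes, counts of genes higher and lower in the inhibitory class stayed within 1.5 times of the reported ones, except at a fold of 2, where the naive library had 4 higher and 2 lower and the injured library 5 and 2, and where a cluster was left out. Without cluster 3, 4, 9 or 12 the naive library had 2 lower, and without cluster 4 or 19 the injured library had 3 lower. Across all alternatives the log2 class ratio of Unc13c ran from 2.02 to 2.57 in the naive and from 1.74 to 2.20 in the injured library, and that of Sv2b from -3.41 to -2.14 and from -3.17 to -2.21. Classes set from the transmitter UMIs of each nucleus kept Unc13c at 2.16 and 1.91 and Sv2b at -2.44 and -2.45.

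The few calls between libraries depended on the setting. In inhibitory-like nuclei, 1 gene was higher and 1 lower with the median of all genes set to 0, 1 lower with TMM factors, 3 higher and 5 lower in nuclei with Y-linked UMIs, 1 lower less the median of the length group, 1 higher without cluster 1, 1 lower without cluster 14 and 1 lower at a fold of 1.5. In excitatory-like nuclei, 1 was higher and 1 lower with each nucleus at the same weight; 3 were higher with the median set to 0 or with TMM factors; 3 were higher and 5 lower in nuclei with Y-linked UMIs. There, 2 were higher without nuclei holding both Xist and Y-linked UMIs, 1 without Scrublet doublets, 2 without the deepest 10% of nuclei, 1 without cluster 0, 3 without cluster 20, and 1 at a minimum of 20 UMIs or with no minimum. Thinning gave 5 lower, the length group 1 lower and a fold of 1.5 gave 0 lower. The cause of these shifts was not tested. Leaving out clusters was chosen after seeing the data. Rab3a stayed lower in the injured library in all 31 alternatives of each class, with log2 ratios from -0.72 to -0.37 and from -0.71 to -0.30. Sv2b in inhibitory-like nuclei had a log2 library ratio, injured over naive, of 0.85 in nuclei with Y-linked UMIs and -0.21 in nuclei with Xist UMIs. No paired analysis was possible because each condition had 1 library and no test was run.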
